A study of Homo sapiens with 9 samples.

Results

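The Krüppel-like factors (KLF) are transcription factors with zinc fingers at the carboxy terminus that bind GC-rich and CACCC-type DNA. They were followed here as 10 genes, KLF2, KLF3, KLF4, KLF5, KLF6, KLF7, KLF9, KLF10, KLF11 and KLF13, taken by symbol from a table of 26475 genes. All 10 passed the filter on low counts, as did 13784 genes in total. RNA was measured in hTERT_RPE1 cells, retinal pigment epithelial cells immortalised with telomerase, in 9 libraries that fall into 3 conditions of 3. Control cells carried the empty pLKO_1 vector, which 1 label field calls a control shRNA, and grew on fibronectin-coated glass. The sh_PIP4K2B cells grew on the same surface and carried a hairpin against PIP4K2B, a lipid kinase acting on phosphatidylinositol 5-phosphate. Each of the 3 libraries had a different hairpin (#1, #2 and #3), so that hairpin and library cannot be told apart. Soft cells carried the empty vector and grew on a fibronectin-coated gel of 2.3 kPa. RNA was taken 24 h after seeding, and the time from transduction to RNA is not given in the sources used here.

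KLF proteins compete for related GC-rich sites and differ mainly in their amino-terminal parts, which recruit activators or corepressors. KLF2 and KLF4 are best known from endothelium, where flow induces them through the kinase ERK5 and MEF2 factors. KLF4 and KLF5 often act in opposite directions on epithelial proliferation. KLF9 is a textbook target of the glucocorticoid receptor, and KLF10 and KLF11 are induced early by TGF-beta.

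Library totals ran from 19217346 to 24020799 estimated counts. Levels are given as CPM, counts scaled to a common library size by TMM (trimmed mean of M-values). PIP4K2B was between 36.6 and 48.4 CPM with the hairpins, lowest with #3, and between 119 and 127 CPM in the other 6 libraries. Of 12 retinal pigment epithelium markers 4 passed the filter. RPE65 and LRAT were at or near 0 in every library, whereas MITF lay between 24.4 and 39.3 CPM and OTX2 between 10.3 and 39.4 CPM. OTX2 was called higher in both comparisons against Control (log2 0.65 ± 0.12 in sh_PIP4K2B and 1.77 ± 0.13 in Soft). Of 6 markers of cultured epithelium 5 passed, from KRT7 at 5.88 to 16.1 CPM to vimentin (VIM) at 4046 to 8633 CPM, and KRT19 did not. KRT18 was called lower in both comparisons (-1.10 ± 0.15 and -1.31 ± 0.15) and KRT8 in Soft (-0.98 ± 0.20). The part of these markers in the KLF results was not tested. The hairpin libraries spread more than the others. The SD of log2 CPM over the 3 libraries, as a median over all genes tested, was 0.36 in sh_PIP4K2B against 0.081 in Control and 0.073 in Soft.

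The sequences before the starts of the 4 KLF genes that passed the test against Control in the results that follow are shown so that they can be searched for the letters that KLF and related factors read. They come from RefSeq (GRCh38.p14), are written 5′ to 3′ on the strand of the gene, and stop before the first annotated transcribed base. Capitals mark 4 motifs on either strand. They are CACCC, the KLF site, then GGGCGG, known as the GC box, the CCAAT box, and the motif bound by MEF2.
KLF2: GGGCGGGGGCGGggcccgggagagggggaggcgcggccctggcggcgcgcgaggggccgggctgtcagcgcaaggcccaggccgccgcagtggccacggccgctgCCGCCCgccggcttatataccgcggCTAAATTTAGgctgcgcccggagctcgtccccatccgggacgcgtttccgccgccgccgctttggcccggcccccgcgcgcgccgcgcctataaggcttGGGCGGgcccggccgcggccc
KLF6: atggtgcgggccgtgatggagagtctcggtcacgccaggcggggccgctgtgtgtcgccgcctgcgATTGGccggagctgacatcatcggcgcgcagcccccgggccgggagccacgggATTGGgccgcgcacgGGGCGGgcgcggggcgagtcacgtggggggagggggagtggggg
KLF9: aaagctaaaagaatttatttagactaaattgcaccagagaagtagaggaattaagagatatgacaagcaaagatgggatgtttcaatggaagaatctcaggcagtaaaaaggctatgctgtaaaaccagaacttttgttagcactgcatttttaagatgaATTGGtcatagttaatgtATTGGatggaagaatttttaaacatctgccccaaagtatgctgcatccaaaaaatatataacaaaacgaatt
KLF13: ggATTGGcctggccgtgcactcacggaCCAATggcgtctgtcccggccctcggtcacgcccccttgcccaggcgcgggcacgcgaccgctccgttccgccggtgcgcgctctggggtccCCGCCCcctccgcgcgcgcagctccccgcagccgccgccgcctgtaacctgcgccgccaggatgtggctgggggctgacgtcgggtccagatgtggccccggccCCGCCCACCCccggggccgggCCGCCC

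These stretches lie at chr19:16324576-16324825 (plus strand), chr10:3785282-3785459 (minus), chr9:70414658-70414907 (minus) and chr15:31326585-31326834 (plus). RefSeq entries were found for 8 of the 10 genes, all but KLF3 and KLF10. In the 250 bases before the start, the KLF2 sequence was 80% G and C and held 4 GC boxes and 1 match to the MEF2 motif, 120 bases before the start. Among 35116 promoters of the same length, 42.6% held GGGCGG and 2.8% the MEF2 motif. The KLF9 sequence was 32.4% G and C, with 2 CCAAT matches and no GC box, and KLF13, at 78.8%, held 3 GC boxes, 2 CCAAT and 1 CACCC that shares a base with a GC box. KLF6 held 2 GC boxes and 2 CCAAT, of which 1 GC box lies in bases not printed. CCAAT occurred in 32% and CACCC in 54.7% of all promoters. These matches describe letters and not binding.

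By GENCODE v44 (GRCh38), KLF2 is a gene of 3 exons at chr19:16324826-16328685, KLF6 one of 4 exons at chr10:3775996-3785281, KLF9 one of 2 exons at chr9:70384604-70414657 and KLF13 one of 2 exons at chr15:31326835-31435665. Of the others, KLF3 is at chr4:38664197-38701517, KLF4 at chr9:107484852-107490482, KLF5 at chr13:73054976-73077541, KLF7 at chr2:207074137-207173856 and KLF11 at chr2:10042849-10054836. No 75-base stretch of any of the 10 canonical transcripts, 75 nt being the read length, occurred in a transcript of another gene. Exons of KLF3, KLF4 and KLF11 overlap another annotated gene, in the case of KLF3 the antisense gene KLF3-AS1. The libraries were stranded, but whether counting used strand is not given in the sources used here, so reads of these 3 genes and their partners may not be separated.

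Divided by transcript length, the levels in Control ran from 0.71 ± 0.17 CPM per kb for KLF4 to 32.1 ± 1.4 for KLF6 (SD, n = 3). KLF2 (29.9 ± 0.88) lay beside KLF6 with overlapping libraries, followed by KLF10 at 17.5 ± 0.26. KLF5 (6.40 ± 0.65) and KLF7 (5.83 ± 0.14) differed by less than the SD of KLF5. KLF9 at 4.57 ± 0.11 was sixth, above KLF3, KLF13, KLF11 and KLF4. On the soft gel the order changed. KLF9 at 17.0 ± 0.94 CPM per kb overlapped with KLF10 (16.9 ± 0.34) at the top, and KLF2 (14.8 ± 0.66) overlapped with KLF6 (13.5 ± 1.0). At the bottom, KLF4 (1.82 ± 0.053) and KLF11 (1.81 ± 0.21) could not be separated.

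Against Control, 1 of 10 KLF genes passed an adjusted p of 0.01 (edgeR quasi-likelihood test, Benjamini-Hochberg over all genes tested) in sh_PIP4K2B and 4 of 10 in Soft. In sh_PIP4K2B it was KLF9, higher. In Soft, KLF9 and KLF13 were higher and KLF2 and KLF6 lower. Over all genes tested, 5.54% passed in sh_PIP4K2B (2.76% higher and 2.77% lower) and 30.6% in Soft (15.8% higher and 14.8% lower). The share of KLF genes was thus not far from the background in both. No KLF gene was lower at the threshold in sh_PIP4K2B, and none was at an unadjusted p below 0.05 or by DESeq2. In the other direction 4 were at an unadjusted p below 0.05, and DESeq2 called 3, KLF3, KLF4 and KLF9. Of all genes tested DESeq2 called 2066 there, in either direction. The share of all genes at an unadjusted p below 0.05 was not taken. The median size of the log2 change over the 10 genes, whatever its sign, was 0.44 in sh_PIP4K2B and 0.82 in Soft, beside 0.30 and 0.49 over all genes tested.

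**Figure D1:**
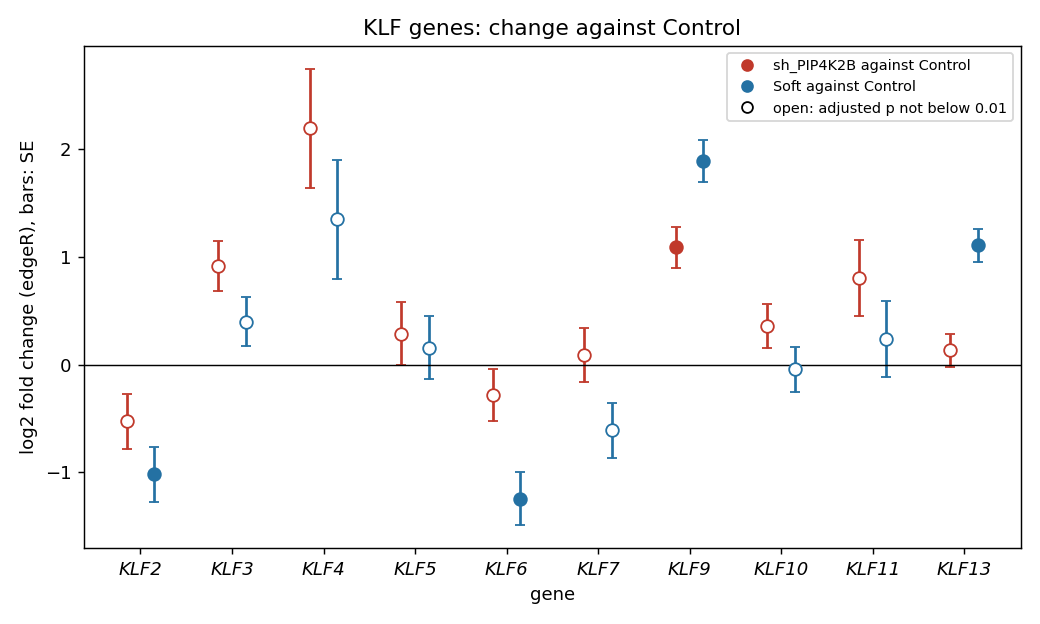
The log2 fold change of each KLF gene against Control (vertical axis, edgeR) is plotted by gene, red for sh_PIP4K2B and blue for Soft, with bars of 1 SE and filled symbols where the adjusted p was below 0.01. KLF9 is filled in both comparisons, while KLF2, KLF6 and KLF13 are filled in Soft.

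KLF9, which mostly acts as a repressor with Sin3A, showed the highest fold change of the 4 in Soft. Its level was 24.1, 24.1 and 23.1 CPM in Control and 89.7, 92.4 and 82.9 CPM in Soft. With hairpins #1, #2 and #3 it was 33.9, 57.2 and 60.5 CPM. The 3 conditions did not overlap, with Control lowest and Soft highest. The rise was 3.72-fold in Soft (log2 1.89 ± 0.20, SE, adjusted p = 9e-05) and 2.13-fold in sh_PIP4K2B (1.09 ± 0.19, adjusted p = 0.0066). The call in Soft held under all 16 other ways of fitting, with adjusted p up to 0.0011. The call in sh_PIP4K2B held under 7 of 16, with adjusted p from 6.3e-06 to 0.041. It was lost without any single Control library (log2 1.07 to 1.10, adjusted p 0.036 to 0.037), without any single Soft library (1.09, 0.016 to 0.017), without hairpin #2 (0.99, 0.01) and in the fit of the 6 libraries of the 2 conditions alone (1.08, 0.041). The one remaining loss, under the replicate block, is given with the other alternatives.

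KLF13, a close relative of KLF9 in the same Sin3A-binding group, was called in Soft and not in sh_PIP4K2B. It stood at 14.7, 13.5 and 12.3 CPM in Control, 11.7, 15.1 and 17.6 CPM with hairpins #1 to #3, and 29.2, 29.1 and 29.0 CPM in Soft. Every Soft library lay above the other 6, and the hairpin libraries fell on both sides of the Control range. The rise in Soft was 2.16-fold (log2 1.11 ± 0.15, adjusted p = 0.00041), a call kept under all 16 other ways of fitting, with adjusted p up to 0.0037. In sh_PIP4K2B the log2 difference was 0.13 ± 0.15 (adjusted p = 0.59).

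KLF6, an injury-induced factor with tumour-suppressor activity, had the highest level per length in Control. It fell from 141, 147 and 154 CPM in Control to 58.6, 67.4 and 59.9 CPM in Soft, without overlap. The fall was 2.37-fold (log2 -1.25 ± 0.25, adjusted p = 0.0029). With hairpins #1, #2 and #3 the level was 81.3, 102 and 179 CPM, the first pair below every Control library and the last above. The log2 difference over the 3 hairpins was -0.29 ± 0.24 (adjusted p = 0.45). It was -0.69 without hairpin #3 (adjusted p = 0.0046, past the threshold), -0.18 without hairpin #2 (0.66) and -0.069 without hairpin #1 (0.83). The call in Soft held under 11 of 16 other ways of fitting, with adjusted p from 1.4e-11 to 0.016. It was lost without Control replicate 2 (log2 -1.25, adjusted p = 0.011), Control replicate 3 (-1.22, 0.013) and Soft replicate 1, 2 or 3 (-1.21, -1.31 and -1.23, with 0.016, 0.011 and 0.015).

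KLF2, an endothelial quiescence factor, stood at 81.7, 84.8 and 86.6 CPM in Control and 43.0, 42.4 and 39.5 CPM in Soft. With hairpins #1, #2 and #3 it was 36.5, 51.9 and 87.1 CPM. Hairpins #1 and #2 were below the Control range and hairpin #3 was just above it, as with KLF6. The fall in Soft was 2.03-fold (log2 -1.02 ± 0.26), and its adjusted p of 0.0098 lay at the threshold. The call held under 5 of 16 other ways of fitting, with log2 values from -1.05 to -0.91. Adjusted p ran from 4.9e-11, in the fit of the 6 Control and Soft libraries alone, to 0.039. The call was lost without any single Control library (adjusted p 0.026 to 0.033), without any single Soft library (0.032 to 0.039) and without hairpin #2 (log2 -1.02, adjusted p = 0.013). It was also lost under scaling by library totals (0.019) and by the upper quartile (0.014). The same held with at least 10 counts asked of every library (0.011) and with the replicate block (0.012). In sh_PIP4K2B the log2 difference was -0.53 ± 0.25 (adjusted p = 0.18), and without hairpin #3 it was -0.94 (adjusted p = 0.0029).

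**Figure D2:**
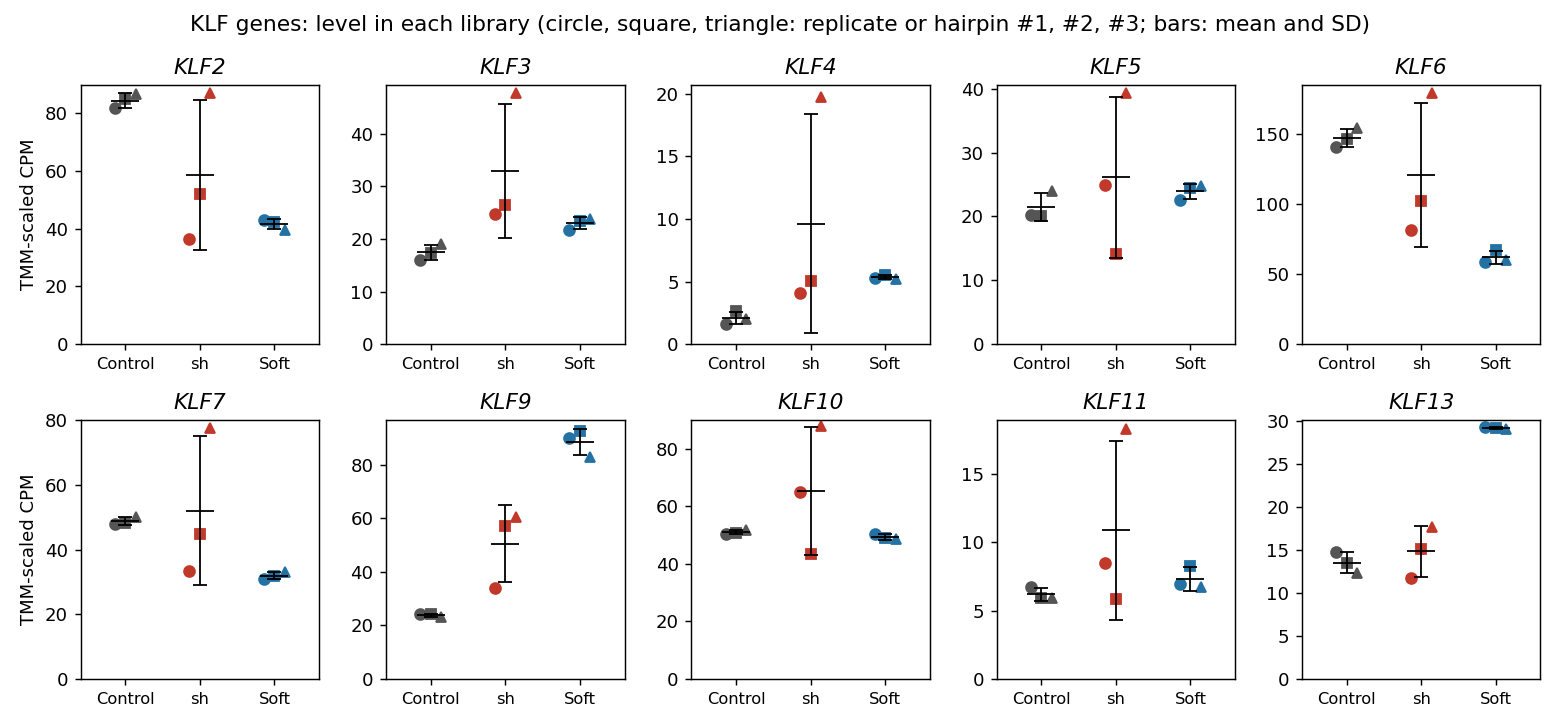
The level of each KLF gene (vertical axes, TMM-scaled CPM from 0) is plotted for each library of Control, sh_PIP4K2B (sh) and Soft, with the mean and SD of 3 libraries. Hairpin #3, the triangle in the sh column, is the highest of the 3 hairpin libraries in all 10 panels, and Soft KLF13 lies between 29.0 and 29.2 CPM.

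KLF4, known for its part in reprogramming and in epithelial differentiation, was the lowest per length in Control. It stood at 1.63, 2.63 and 2.01 CPM in Control (35, 60 and 46 counts), 4.10, 5.06 and 19.8 CPM with hairpins #1 to #3, and 5.29, 5.52 and 5.23 CPM in Soft. Neither set overlapped Control. The log2 difference was 2.20 ± 0.55 in sh_PIP4K2B (adjusted p = 0.026) and 1.35 ± 0.55 in Soft (0.07), neither past the threshold. Without hairpin #3 the values were 1.12 (adjusted p = 0.007) and 1.34 (0.0006), and without hairpin #1 the first was 2.56 (0.0074). DESeq2 gave 2.19 for sh_PIP4K2B with an adjusted p of 0.00038. The edgeR fit of the 6 Control and Soft libraries alone gave 1.34 for Soft (adjusted p = 2e-06). That of the 6 Control and hairpin libraries gave 2.19 for sh_PIP4K2B (0.087).

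KLF3, a repressor that works through CtBP, showed a like order. Its level was 16.1, 17.3 and 19.0 CPM in Control, 24.8, 26.4 and 47.7 CPM with hairpins #1 to #3, and 21.7, 23.5 and 23.9 CPM in Soft. Again neither set overlapped Control. The log2 differences were 0.92 ± 0.23 (adjusted p = 0.026) and 0.40 ± 0.23 (0.18). Without hairpin #3 they were 0.55 (0.0062) and 0.39 (0.0075), and without hairpin #1 the first was 1.09 (0.0082). DESeq2 gave 0.91 for sh_PIP4K2B with an adjusted p of 0.0023. The edgeR fit of the 6 Control and Soft libraries alone gave 0.39 for Soft (adjusted p = 0.0002). That of the 6 Control and hairpin libraries gave 0.91 for sh_PIP4K2B (0.09).

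KLF7, first studied in neurons, stood at 48.0, 48.2 and 50.2 CPM in Control and 30.8, 31.9 and 33.1 CPM in Soft, without overlap. With hairpins #1 to #3 it was 33.4, 44.9 and 77.7 CPM, on both sides of Control. The log2 difference was -0.61 ± 0.25 in Soft (adjusted p = 0.072), and -0.62 with 0.0017 when hairpin #3 was left out of the fit. In sh_PIP4K2B it was 0.09 ± 0.25 (adjusted p = 0.83), and -0.32 (0.086) without hairpin #3. The edgeR fit of the 6 Control and Soft libraries alone gave the fall in Soft an adjusted p of 3.2e-08.

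KLF5, KLF10 and KLF11 passed in neither comparison. KLF5, a promoter of epithelial proliferation, stood at 20.2, 20.1 and 23.9 CPM in Control, 24.9, 14.2 and 39.3 CPM with the hairpins and 22.6, 24.4 and 24.7 CPM in Soft. KLF10 stood at 50.4, 50.6 and 51.8 CPM in Control, 65.0, 43.3 and 87.8 CPM with the hairpins and 50.5, 48.9 and 48.8 CPM in Soft. KLF11 stood at 6.75, 5.92 and 5.94 CPM, then 8.52, 5.83 and 18.3 CPM and 6.98, 8.29 and 6.70 CPM. In each of the 3 genes hairpin #2 was the lowest of the hairpins, and the Soft libraries overlapped Control. The log2 differences in sh_PIP4K2B were 0.29 ± 0.29, 0.36 ± 0.21 and 0.81 ± 0.35 for KLF5, KLF10 and KLF11 (adjusted p = 0.53, 0.26 and 0.14). Those in Soft were 0.16 ± 0.29, -0.04 ± 0.21 and 0.24 ± 0.35 (adjusted p = 0.68, 0.87 and 0.61). The sign for KLF10 in Soft turned under scaling by library totals (0.062) and by the upper quartile (0.011).

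The libraries of the KLF genes separated without overlap in 3 of 10 cases for sh_PIP4K2B against Control (KLF3, KLF4 and KLF9) and in 7 of 10 for Soft against Control. These shares stood beside 34.1% and 79.4% of all genes tested.

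All 10 KLF genes were highest with hairpin #3 among the 3 hairpins, whereas 34.3% of all genes tested were. Hairpin #1 was highest for 36.4% and hairpin #2 for 29.4% of genes, and for none of these 10. Of the other KLF and SP genes tested, KLF12, SP1, SP2, SP3 and SP4 were also highest with hairpin #3. KLF16, KLF17 and SP6 were lowest with it. The ratio of the highest to the lowest hairpin ranged from 1.51 for KLF13 to 4.83 for KLF4, with a median of 2.27 beside 1.61 over all genes tested. The SD of log2 CPM over the hairpins had a median of 0.60 for the KLF genes and 0.36 for all genes, whereas in Control and Soft the KLF medians were 0.085 and 0.068 beside 0.081 and 0.073. The genes are measured in the same library and are not replicates of each other. PIP4K2B itself stood at 48.4, 40.9 and 36.6 CPM with hairpins #1 to #3, so the hairpin with the highest KLF levels had the lowest target level.

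**Figure D3:**
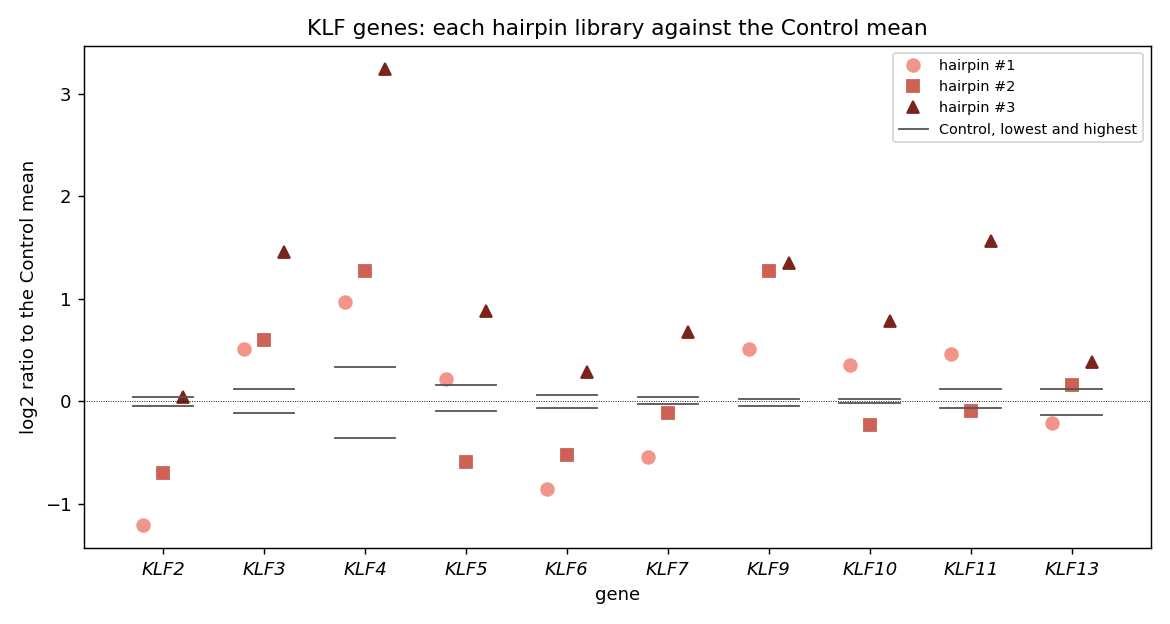
The log2 ratio of each hairpin library to the Control mean (vertical axis) is plotted by gene, with grey lines at the lowest and highest Control library. Hairpin #3 lies above the other hairpins for all 10 genes, from 0.05 for KLF2 to 3.24 for KLF4, and hairpin #1 runs from -1.21 for KLF2 to 0.97 for KLF4.

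The test of Soft against sh_PIP4K2B, which is the test of the difference between the 2 effects, called 2 of 10 KLF genes beside 30% of all genes (14.5% higher and 15.5% lower). KLF13 was 1.97-fold higher in Soft (log2 0.98 ± 0.15, adjusted p = 0.00084) and KLF9 1.75-fold higher (0.81 ± 0.19, adjusted p = 0.0072). KLF6 missed the threshold at -0.96 ± 0.25 (adjusted p = 0.011), as did KLF7 at -0.70 ± 0.25 (0.045). No KLF gene was lower at the threshold, 3 were at an unadjusted p below 0.05 and DESeq2 called 1, KLF6. Of all genes tested DESeq2 called 5403 here, in either direction. Groups separated without overlap in 5 of 10 KLF genes, beside 54% of all genes. The KLF13 call held under all 16 other ways of fitting, with adjusted p up to 0.0064. The KLF9 call held under 8 of 16, with adjusted p from 0.00036 to 0.03, and was lost without any single Control library (log2 0.80, 0.014 to 0.015) or Soft library (0.77 to 0.85, 0.02 to 0.029). Without hairpin #1 KLF2, KLF6 and KLF7 also passed.

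Likeness between genes was measured as the root mean square difference of log2 CPM, each gene relative to its own Control mean, over the 9 libraries. Among the KLF genes the closest pairs were KLF5 with KLF10 (0.19), KLF2 with KLF6 (0.21) and KLF3 with KLF11 (0.28). Among 12118 genes compared, the genes nearest to KLF9 were RUNX2 (0.12) and PXK (0.15), and to KLF13 DISP1 (0.093) and HS1BP3 (0.095). Those nearest to KLF2 were PNMA2 (0.089) and C18orf54 (0.11), and to KLF6 NALCN and PPIF (0.13 each). A small difference is a likeness of profile in these libraries, which all the genes share.

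The other KLF and SP genes form the rest of the superfamily. The count table held 16 of them, and 8 passed the filter. In sh_PIP4K2B edgeR called 0 of 8, with 2 at an unadjusted p below 0.05 and 1 by DESeq2. In Soft it called 4 of 8. SP1, a general GC-box activator, rose from 67.5, 74.5 and 68.2 CPM to 102, 104 and 109 CPM (log2 0.58 ± 0.12, adjusted p = 0.0043), and KLF17 rose from a level of at most 0.279 CPM to between 1.29 and 1.61 CPM. The CtBP-binding repressor KLF12 fell by 0.60 on the log2 scale (adjusted p = 0.0015) and KLF16, a relative of KLF9 and KLF13, fell by 0.61 (adjusted p = 0.00066). The list's median log2 change was 0.20 in sh_PIP4K2B and 0.34 in Soft, beside 0.05 and 0.01 over all genes tested.

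Partners and regulators of KLF proteins are given list by list, against a background of 5.54% of all genes called in sh_PIP4K2B and 30.6% in Soft. DESeq2 called 2066 of all genes tested in sh_PIP4K2B. Of 13 cofactors edgeR called 0 in sh_PIP4K2B (3 at an unadjusted p below 0.05, 0 by DESeq2). In Soft it called 1 of 13 (6 at an unadjusted p below 0.05, 4 by DESeq2). The cofactor called was SIN3A, the corepressor scaffold that KLF9 and KLF13 bind. It rose from 48.6, 50.6 and 45.3 CPM to 81.7, 83.8 and 84.3 CPM (log2 0.79 ± 0.09, adjusted p = 0.00014). Of 11 turnover enzymes 1 was called higher in sh_PIP4K2B, the ubiquitin ligase subunit FBXW7 (log2 0.97 ± 0.11, adjusted p = 0.0012), at 28.7, 24.1 and 27.0 CPM beside 12.7, 13.4 and 14.6 CPM in Control. In Soft 4 were called lower, BTRC, SMURF2, USP10 and WWP1. SMURF2, a ligase of the TGF-beta pathway, fell by 2.70 on the log2 scale (SE 0.28, adjusted p = 8.7e-05). Under scaling by library totals 1 of 11 enzymes was called in Soft.

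The next list holds 16 genes of the ERK5, MEF2 and cerebral cavernous malformation inputs to KLF2 and KLF4 in endothelium, some activating and some restraining. In sh_PIP4K2B edgeR called 0 of them, 4 were at an unadjusted p below 0.05 and DESeq2 called 1. In Soft 5 were called higher, among them MEF2C, from 4.98, 4.52 and 3.76 CPM to 14.9, 17.2 and 16.6 CPM (log2 1.88 ± 0.31, adjusted p = 0.0011), MEF2A (1.02 ± 0.11, 0.00013) and the ERK5 kinase MAP2K5 (0.85 ± 0.14, 0.00092). HDAC5, which holds MEF2 factors silent, rose too (1.84 ± 0.23, 0.00025). PDCD10, of the cavernous malformation complex, fell by 0.57 (0.002). The endothelial marker PECAM1 rose in Soft to 4.70, 5.33 and 4.34 CPM from at most 0.218 CPM in Control, while CDH5 was at 0 in every Soft and Control library and VWF at most 0.655 CPM in any library. KDR, the fourth endothelial marker, was 1.63, 1.27 and 1.44 CPM in Control, 2.53, 1.78 and 10.2 CPM with hairpins #1 to #3 and 2.74, 3.71 and 3.35 CPM in Soft. It overlapped with Control in neither (log2 1.74 ± 0.58, adjusted p = 0.069, and 1.17 ± 0.58, 0.13). Of 11 markers of other cell types 5 passed the filter. The summed level of all 11 ran from 154 to 158 CPM in Soft, from 68.2 to 71.9 CPM in Control and from 47.9 to 94.5 CPM with the hairpins. CD68 made up most of it. The part of these markers in the KLF results was not tested, and in bulk RNA a change in the number of cells of a type and a change in RNA per cell cannot be told apart.

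Of 9 TGF-beta genes 1 was called higher in sh_PIP4K2B (TGFBR1, log2 0.95 ± 0.16, adjusted p = 0.006), and in Soft 3 were called higher and 1 lower. TGFB1 rose from 245, 252 and 233 CPM to 679, 620 and 622 CPM in Soft (log2 1.40 ± 0.21, adjusted p = 0.00072), whereas TGFB2 fell by 1.73 (SE 0.32, 0.0019). KLF10 and KLF11, the TGF-beta-induced members, were called in neither comparison.

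Of 8 glucocorticoid-responsive genes tested, 2 were called higher in sh_PIP4K2B, CEBPD (log2 2.53 ± 0.36, adjusted p = 0.0026) and NR3C1, the receptor itself (0.87 ± 0.15, 0.0049), at 62.4, 62.8 and 63.9 CPM in Control and 113, 92.0 and 142 CPM with the hairpins. DESeq2 called 3 higher and 2 lower there. FKBP5, a classic target of the receptor, was 32.9, 35.7 and 34.6 CPM in Control and 23.1, 25.1 and 25.2 CPM with the hairpins, below Control without overlap (log2 -0.49 ± 0.10, adjusted p = 0.012). In Soft CEBPD (2.23 ± 0.36, 0.00097) and TSC22D3 (1.40 ± 0.22, 0.00084) were higher, and DUSP1 and SGK1 were lower by 0.54 and 1.10. KLF9 and CEBPD were thus both called higher in both comparisons, which share the Control libraries, while SGK1, another glucocorticoid target, fell in Soft (from 83.2, 81.5 and 80.4 CPM to 36.1, 40.2 and 38.2 CPM). Their order over the hairpins differed. CEBPD was 20.6, 6.65 and 16.3 CPM with hairpins #1 to #3, lowest with #2, whereas KLF9 was lowest with #1.

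Of 13 genes that textbooks ascribe to KLF control, 2 were called lower in sh_PIP4K2B (CCNB1 and CCNE1). At an unadjusted p below 0.05 there were 5 higher and 4 lower, and DESeq2 called 4 in each direction. In Soft 4 were called higher, among them MAOB, SMAD7 and THBD, and 3 lower, among them CCND1 and CCNE1. THBD, which KLF2 activates in endothelium, rose from 22.8, 21.9 and 24.4 CPM to 255, 272 and 246 CPM in Soft (log2 3.49 ± 0.38, adjusted p = 0.00011), while KLF2 fell. KLF4, which was not called, stood above every Control library in Soft. With hairpins #1 to #3 THBD was 36.0, 29.6 and 89.4 CPM (log2 1.16 ± 0.35, adjusted p = 0.048). The part of KLF2 and KLF4 in these levels was not tested. Over 13 proliferation genes 11 were called lower in sh_PIP4K2B and 6 in Soft, with median log2 changes of -0.85 and -0.48. By hairpin the median was -0.93, -0.69 and -1.04, so hairpin #3, with the highest KLF levels, had the lowest value. CDKN1A, an arrest gene that KLF4 and KLF6 can activate, was 5866, 3888 and 1117 CPM with hairpins #1 to #3 beside 744 to 777 CPM in Control, the reverse of the order of KLF4 and KLF6 (log2 2.24 ± 0.46, adjusted p = 0.012). In Soft CDKN1A was 342, 372 and 355 CPM, below every Control library (log2 -1.10 ± 0.45, adjusted p = 0.068). There KLF6 fell as well, and KLF4 stood above Control.

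**Figure D4:**
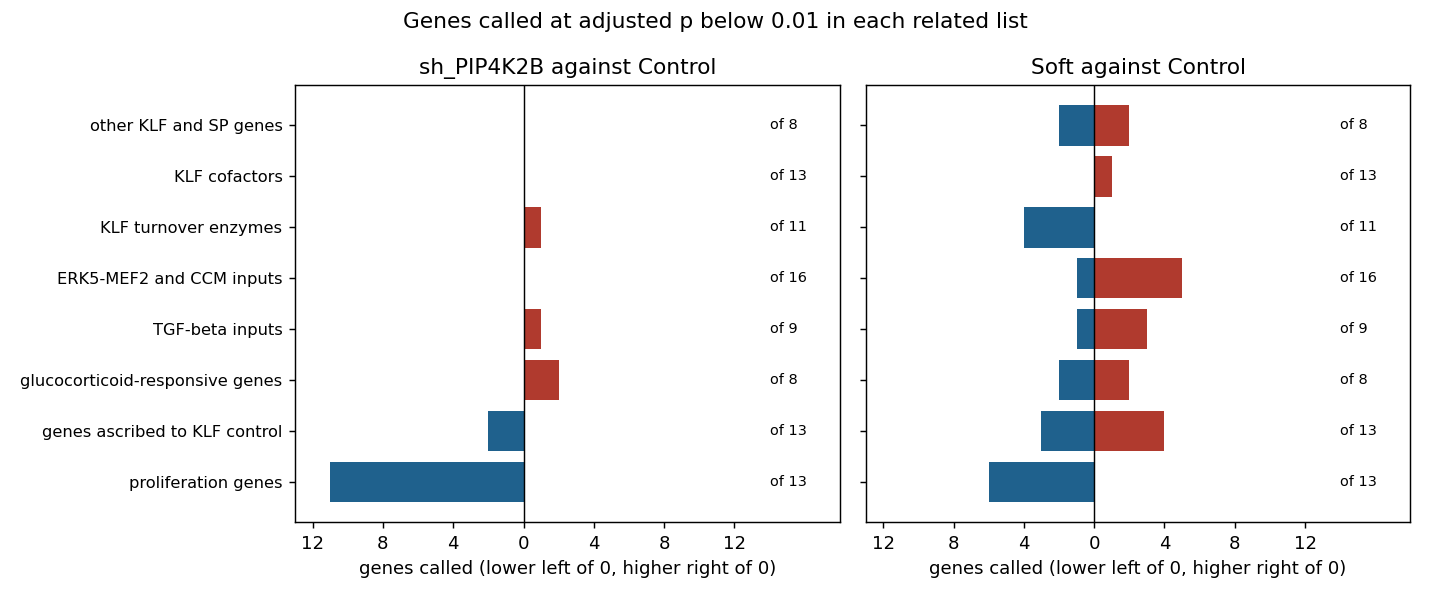
The number of genes called at an adjusted p below 0.01 (horizontal axes, lower to the left of 0 and higher to the right) is drawn for each list of KLF-related genes, sh_PIP4K2B against Control in the left panel and Soft against Control in the right, with the number tested at the right edge. Of 13 proliferation genes 11 were called lower in sh_PIP4K2B and 6 in Soft. Of 16 genes of the ERK5, MEF2 and cavernous malformation list 5, among them HDAC5, were called higher in Soft and 1 lower.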

How the data were processed

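Polyadenylated RNA of 9 hTERT_RPE1 libraries (3 per condition) was read in pairs of 75 nt. STAR was used by the authors for alignment (GRCh38/hg38), and what they deposited were estimated counts for each gene symbol, with no scaling and no pooling. The submitters' processing notes also name Salmon, and its role and the annotation are not given in the sources used here. Of the deposited values 12.3% were not whole, and all were rounded. The floor of 3 counts equalled 0.131 to 0.148 CPM.

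A quasi-likelihood model of edgeR 4.0.16 (R 4.3.3) with TMM factors and the filterByExpr filter took in all 9 libraries at once. Its p-values were adjusted by Benjamini-Hochberg over 13784 genes, and those below 0.01 were called. The SE was taken from the F statistic. DESeq2 1.42.0, other filters, scalings and thresholds, a fit of 6 libraries, a replicate block and leaving out each library were alternatives. Scripts were checked on simulated data. No label ties replicates to separate cultures, so p-values measure the spread between these libraries. The spread of each gene was estimated over all 9 libraries together. The p-values and SE of Soft against Control therefore carry the spread of the hairpin libraries. Those of sh_PIP4K2B against Control draw in turn on the smaller spread within Soft. Replicates within a condition differed by more than sampling noise.

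Named genes were the KLF genes, PIP4K2B, the 2 nearest profiles of each called KLF gene (mean of at least 50 counts in a condition) and called genes of the lists, some of which are not reported here. CDKN1A, FKBP5, KDR, KRT7, KRT19, MITF, VIM, VWF, CDH5, RPE65, LRAT, SP2, SP3, SP4 and SP6 were named after their values were seen. The KLF genes and lists were chosen with earlier results of these data known, and the lists were written by hand.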

Additional observations from a re-analysis of the deposited data

Results flagged for a closer look

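The effect of the soft gel and that of the hairpins differed for 2 of 10 KLF genes by the test of the difference itself. The same test called 30% of all genes, so the share of KLF genes was not above the background. KLF13 was higher in Soft than in sh_PIP4K2B by 0.98 on the log2 scale (adjusted p = 0.00084, edgeR), and all 3 Soft libraries, at 29.0 to 29.2 CPM, lay above the 3 hairpin libraries, at 11.7 to 17.6 CPM. KLF9 was higher in Soft by 0.81 (adjusted p = 0.0072), at 82.9 to 92.4 CPM against 33.9 to 60.5 CPM. In KLF9 both conditions were above Control, whereas in KLF13 the hairpin libraries overlapped Control. The 2 comparisons against Control share the Control libraries.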

How the results depend on the processing

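Of 160 log2 values of the KLF genes under alternatives, 140 kept direction and side of the threshold in sh_PIP4K2B against Control, 136 in Soft against Control and 142 in Soft against sh_PIP4K2B. Signs turned without hairpin #3 for KLF5, KLF7 and KLF13 in sh_PIP4K2B, where leaving out 1 library gave -0.13 to 0.58, -0.32 to 0.33 and -0.015 to 0.27, and for KLF4, KLF5 and KLF11 in Soft against sh_PIP4K2B (-1.23 to 0.21, -0.43 to 0.28 and -0.87 to 0.016). That of KLF10 in Soft turned under library totals (0.062) and the upper quartile (0.011). Library totals moved the median of all genes to 0.14 in sh_PIP4K2B and 0.12 in Soft.

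KLF genes called in sh_PIP4K2B against Control numbered 1, and 3 with DESeq2 or a threshold of 0.05, 0 with 6 libraries or a threshold of 0.001, and 0 to 5 when 1 library was left out. The 5 came without hairpin #3, where 1770 of all genes were called, beside 763 in the main fit. The 4 called in Soft became 7 with 6 libraries, 2 at a threshold of 0.001 and 2 to 7 when 1 library was left out. Without hairpin #3 the 7 included KLF3, KLF4 and KLF7, and 5819 of all genes were called. The 2 called in Soft against sh_PIP4K2B became 1 with 6 libraries, 4 at 0.05, 1 at 0.001 and 1 to 5 when 1 library was left out. The 5 came without hairpin #1, where 5374 of all genes were called. The cause of these changes was not tested. With the replicate block 0 KLF genes were called in sh_PIP4K2B (KLF9 at log2 1.06, adjusted p = 0.018), 3 in Soft and 1 in Soft against sh_PIP4K2B, and the calls over all genes went from 763 to 295, from 4217 to 3536 and from 4135 to 3366. Same-numbered libraries correlated between -0.115 and 0.039 in their deviations. Deviations from a mean of 3 libraries cannot decide whether the numbers pair the cultures. The sample titles number the empty vectors alike in Control and Soft. Of 32 counts over the lists, 11 moved by over 1.5 times under DESeq2 or library totals. Calls over all genes in sh_PIP4K2B were 2066 with DESeq2 and 5 with 6 libraries, and in Soft 9601 with 6 libraries. At 35 to 60 counts in Control, KLF4 was the least precise, with an SE of 0.55.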
